A study of Mus musculus with 2 samples.

Results

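Mirlet7a-1, Mirlet7a-2, Mirlet7c-1, Mirlet7c-2, Mirlet7f-1 and Mirlet7f-2 are the mouse let-7 genes whose symbols carry a copy number, and they make up 3 pairs that encode let-7a, let-7c and let-7f. They were chosen by symbol, not by level, and matched by Ensembl identifier in both count files, which gave 6 of the 2202 annotated microRNA genes. Small RNA libraries were made from the adrenal gland, the organ of steroid and catecholamine synthesis above the kidney, of 2 male mice of the strain B6CASTF1/J at an age of 36 days, 1 library per animal. B6CASTF1/J is the F1 hybrid of C57BL/6J and CAST/EiJ, and whether CAST/EiJ alleles altered mapping to the mm10 reference was not tested. The labels define 1 group of 2 biological replicates with no treatment and no second genotype, and list 1 donor record for both animals.

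let-7 is a family of microRNAs that is conserved across animals and rises as cells leave proliferation and differentiate. A microRNA is cut from a hairpin precursor, in which the 5′ and the 3′ side each give a short arm (5p and 3p), and the let-7 5p arm is the usual guide that represses messengers such as those of Lin28a, Hmga2 and the Ras genes. The RNA-binding protein LIN28 holds let-7 back by binding the loop of its precursors, where its zinc knuckles contact the letters GGAG. Several hairpins on different chromosomes give the same 5p arm, so the guide alone does not tell which locus made it.

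The sequences of the arms are shown because they set which reads can be placed at a copy. They are RefSeq entries on GRCm38.p6, the assembly also called mm10, and the hairpins of all 12 let-7 genes matched an entry by position. Capitals mark the seed, bases 2 to 8, which is the same in all 3 guides.
let-7a-5p: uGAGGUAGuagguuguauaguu
let-7c-5p: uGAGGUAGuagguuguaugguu
let-7f-5p: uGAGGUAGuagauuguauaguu
Counted from 1 at the 5′ end and with let-7a-5p as the reference, let-7c-5p has the change A19G and let-7f-5p the change G12A. Each of these arms lay in exactly 2 of the 2202 counted hairpins, the 2 copies of its own pair.

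The 3p arms divide the copies differently, and are shown for that reason, with bases 2 to 8 in capitals.
let-7a-1-3p: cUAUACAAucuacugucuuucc
let-7a-2-3p: cUGUACAGccuccuagcuuuc
let-7c-1-3p: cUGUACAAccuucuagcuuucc
let-7c-2-3p: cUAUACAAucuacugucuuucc
let-7f-1-3p: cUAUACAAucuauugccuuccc
let-7f-2-3p: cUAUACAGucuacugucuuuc
The arm of Mirlet7a-1 and that of Mirlet7c-2 are identical across the pairs, so both mature arms of these genes also lie in another hairpin. Mirlet7a-2, Mirlet7c-1, Mirlet7f-1 and Mirlet7f-2 each had a 3p arm found in no other counted hairpin. The search covered the counted hairpins on both strands, and the rest of the genome was not used here.

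Beyond the arms, the hairpins part quickly. The next stretches run from 3 bases before the 5p arm to 10 bases after it, read 5′ to 3′ on the gene's strand, with capitals where a copy differs from the other copy of its pair.
Mirlet7a-1 (chr13:48538229-48538263, minus strand): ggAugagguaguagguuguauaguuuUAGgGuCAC
Mirlet7a-2 (chr9:41536729-41536763, plus strand): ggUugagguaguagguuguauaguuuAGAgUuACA
Mirlet7c-1 (chr16:77599669-77599703, plus strand): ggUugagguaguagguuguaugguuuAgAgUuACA
Mirlet7c-2 (chr15:85706613-85706647, plus strand): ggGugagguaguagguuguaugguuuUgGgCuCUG
Mirlet7f-1 (chr13:48537879-48537913, minus strand): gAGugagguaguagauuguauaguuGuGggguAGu
Mirlet7f-2 (chrX:151912350-151912384, plus strand): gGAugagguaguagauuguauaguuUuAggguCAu
A read that starts at the first base of the 5p arm matches only 1 counted hairpin once it is 24 bases long for the let-7a and let-7c copies and 23 bases long for the let-7f copies. A read of the arm with 1 further base at its 5′ end matches only 1 hairpin for all 6 genes. Reads themselves were not examined, so whether their bases beyond the arm came from the locus they match was not tested.

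Cut into windows of 22 bases, the hairpins of Mirlet7a-1 and Mirlet7c-2 held the most shared sequence, with 7 of 73 and 7 of 74 windows also present at another place. The figures were 2 of 75 for Mirlet7a-2, 2 of 73 for Mirlet7c-1, 1 of 68 for Mirlet7f-1 and 1 of 62 for Mirlet7f-2. The 6 other let-7 genes (Mirlet7b, Mirlet7d, Mirlet7e, Mirlet7g, Mirlet7i and Mir98) had no shared window of this length, and 52.5% of all counted hairpins had none. With windows of 18 bases the shared windows rose to 21 of 77 in Mirlet7a-1 and 17 of 78 in Mirlet7c-2. With 25 bases, 2 windows were still shared in each of these hairpins and none in the other 4 copies.

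**Figure D1:**
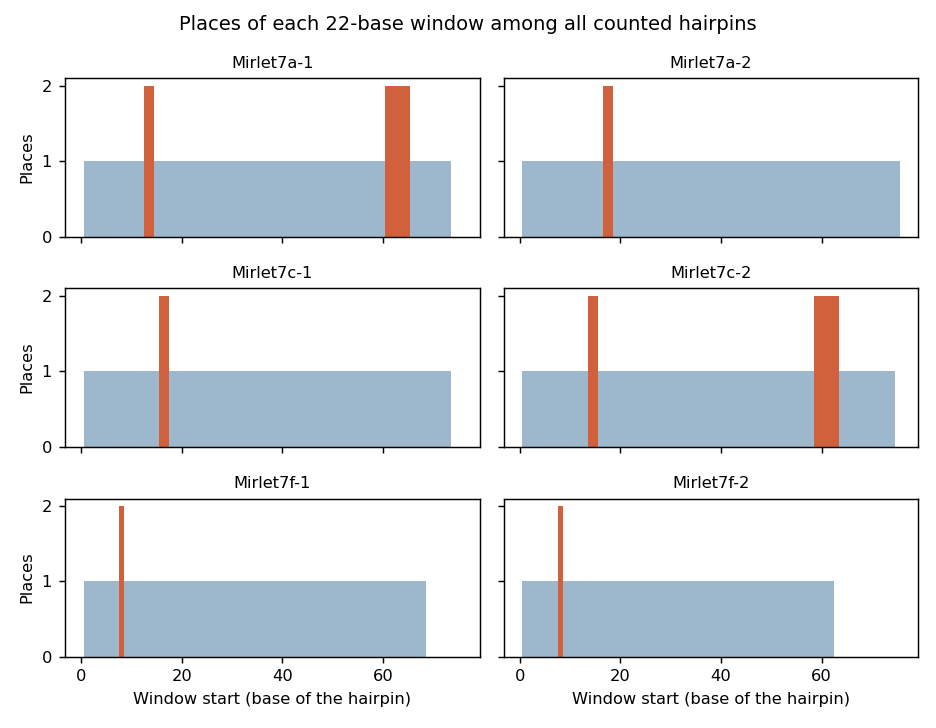
Number of places (y axis) at which each 22-base window of a hairpin occurs among all counted hairpins, against the first base of the window (x axis), for the 6 genes. Windows at 2 places are orange; all 6 hairpins have them at the 5p arm, and only Mirlet7a-1 and Mirlet7c-2 have a second block, at the 3p arm.

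Over their whole length the hairpins did not group by the arm they encode. In global alignments Mirlet7a-2 had 79.2% identity with Mirlet7c-1 and 68.9% with Mirlet7a-1, its own pair. Mirlet7a-1 had 80.0% identity with Mirlet7f-2, and Mirlet7c-2 had 73.7% with Mirlet7a-1 against 67.3% with Mirlet7c-1. The let-7f copies had 72.2% identity with each other, the highest of the 3 pairs. Mirlet7f-1 was thus closest to its own pair, with 68.3% identity with Mirlet7a-1, the next closest.

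The loops between the arms also differ within pairs, and are shown for the GGAG letters that LIN28 contacts, in capitals.
Mirlet7a-1: uuagggucacacccaccacugGGAGauaa
Mirlet7a-2: uagaguuacaucaagGGAGauaa
Mirlet7c-1: uagaguuacacccugGGAGuuaa
Mirlet7c-2: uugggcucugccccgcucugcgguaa
Mirlet7f-1: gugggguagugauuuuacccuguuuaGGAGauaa
Mirlet7f-2: uuagggucauaccccaucuuGGAGauaa
GGAG was searched on the transcribed strand of the whole hairpin, overlaps allowed, and was present in 5 of these 6 hairpins, in 9 of the 12 let-7 hairpins and in 37.2% of all 2202. Mirlet7c-2 was the copy without it, as were Mirlet7b, its neighbour on chromosome 15, and Mir98. A match of 4 letters is a description of the sequence, not a measured binding site.

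The deposited values are raw read counts per hairpin gene on the gene's own strand, given here as CPM, counts scaled to 1000000 reads assigned to microRNA genes in that library. Replicate 1 had 4494857 such reads and replicate 2 had 2078824. Reads that map to several places are tallied apart from the genes, at 3664429 and 2220642 reads, and how many of them are let-7 was not measured. The levels below are therefore those of reads placed at a single locus, and are not the abundance of let-7a, let-7c or let-7f. CPM is not divided by hairpin length, since a small RNA library reads the arm rather than the whole hairpin.

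Reads placed at the 6 loci were a small part of the let-7 reads counted. They numbered 33289 in replicate 1 and 15537 in replicate 2. Of the counts of the 12 let-7 genes they made up 2.93% in replicate 1, with an exact Clopper-Pearson 95% interval from 2.90 to 2.96. In replicate 2 they made up 2.21%, with an interval from 2.17 to 2.24, and the mean was 2.57% ± 0.509 (SD, n = 2). As a share of all gene counts the libraries stood closer, at 0.741% (0.733 to 0.749) and 0.747% (0.736 to 0.759). Reads mapping to several places numbered 110 for each read placed at the 6 loci in replicate 1 and 143 in replicate 2. Intervals cover counting error within 1 library only, and not the spread between animals. PCR copies cannot be recognised in these counts, so the intervals can be too narrow even for that.

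The let-7f pair led. Mirlet7f-2, on the X chromosome in an intron of the ubiquitin ligase gene Huwe1, had 20027 and 8805 counts, or 4456 and 4236 CPM in replicates 1 and 2. Its mean of 4346 ± 156 CPM (SD, n = 2) placed it 39 in the order of all genes. Mirlet7f-1, on chromosome 13 within an exon of the long noncoding RNA 6720427I07Rik, had 1081 and 676 counts, or 240 and 325 CPM, and a mean of 283 ± 59.9 CPM. Mirlet7f-2 therefore held 94.9% of the reads placed in the pair in replicate 1 (94.6 to 95.2, by the same interval) and 92.9% in replicate 2 (92.3 to 93.4), and these intervals do not overlap. Mirlet7f-2 exceeded Mirlet7f-1 18.5-fold in replicate 1 and 13.0-fold in replicate 2.

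Mirlet7f-1 rests on the strand-specific column. The annotated microRNA gene Gm24111 overlaps it on the opposite strand, and in the column that ignores strand Mirlet7f-1 was listed at 0 in both libraries. None of the 6 genes had a read on the opposite strand.

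The let-7c pair came next. Mirlet7c-2, in an exon of the long noncoding RNA Lncppara on chromosome 15, had 6615 and 3522 counts, or 1472 and 1694 CPM, with a mean of 1583 ± 157 CPM. Mirlet7c-1, in an intron of Mir99ahg on chromosome 16, had 3205 and 1584 counts, or 713 and 762 CPM, with a mean of 738 ± 34.6 CPM. Mirlet7c-2 held 67.4% of the pair in replicate 1 (66.4 to 68.3) and 69.0% in replicate 2 (67.7 to 70.2), intervals that overlap, and was the higher copy in both libraries. The copy with the larger count was the one whose 2 mature arms both lie in another hairpin.

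The let-7a pair was the lowest of the 3. Mirlet7a-1, in an exon of 6720427I07Rik, had 1475 and 600 counts, or 328 and 289 CPM, with a mean of 308 ± 28.0 CPM. Mirlet7a-2, in introns of the noncoding genes 3110039I08Rik and Gm49317 on chromosome 9, had 886 and 350 counts, or 197 and 168 CPM, with a mean of 183 ± 20.3 CPM. Mirlet7a-2 held 37.5% of the pair in replicate 1 (35.6 to 39.5) and 36.8% in replicate 2 (33.8 to 40.0), intervals that overlap.

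In order, the 6 genes ran Mirlet7f-2, Mirlet7c-2, Mirlet7c-1, Mirlet7a-1, Mirlet7f-1 and Mirlet7a-2, at positions 39, 65, 103, 140, 143 and 168 among all genes. The 3 highest kept their places in each library with no overlap between neighbours. Mirlet7a-1 and Mirlet7f-1 changed places between the libraries and do not differ beyond their spread. Mirlet7f-1 stood above Mirlet7a-2 in both libraries.

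**Figure D2:**
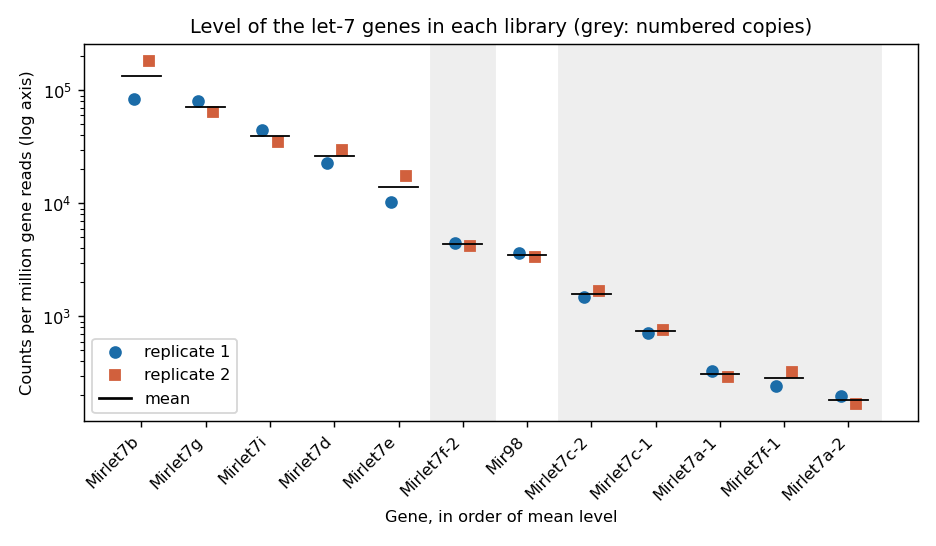
Level of the 12 let-7 genes in each library, in CPM on a log axis, with the mean as a line; genes are ordered by mean level and the 6 numbered copies are shaded. Mirlet7f-2 stands just above Mir98, and the other 5 copies are the lowest 5 of the 12.

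Each member was set between its neighbours in the order of mean level over all genes. With 2 libraries no likeness of pattern can be measured, since any correlation over 2 points is 1 or -1. Mirlet7f-2 lay between Mir320 at 4496 ± 2505 CPM and Mir674 at 3706 ± 2170 CPM, and Mirlet7c-2 between Mir193b at 1644 ± 1963 CPM and Mir132 at 1547 ± 1298 CPM. Mirlet7c-1 lay between Mir92-1 at 741 ± 382 CPM and Mir497 at 737 ± 221 CPM. Mirlet7a-1 lay between Mir155 at 314 ± 57.2 CPM and Mir222 at 294 ± 246 CPM. Mirlet7f-1 lay between Mir188 at 285 ± 41.6 CPM and Mir1981 at 282 ± 3.44 CPM, and Mirlet7a-2 between Mir326 at 190 ± 168 CPM and Mir874 at 175 ± 55.2 CPM. Of these 12 neighbours, none differs from its member beyond the larger of the SDs. They were taken for their closeness in mean level, so this follows from the choice and is no result about the copies.

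All 6 copies lie in microRNA clusters, within 60 kb of another microRNA gene on the same strand. For 5 of the 6 the highest neighbour stood at least 11.9-fold above the copy in each library, while other neighbours were closer to it or below. All ratios within clusters are of reads placed at a single locus, without reads shared between copies. The 5p arms of the copies lie in 2 counted hairpins, and those of Mirlet7d, Mirlet7b and Mir98 in 1. The part of this in the ratios was not tested. On chromosome 13, Mirlet7a-1 (ENSMUSG00000065421.3, mm10 48538179 to 48538272) and Mirlet7f-1 (ENSMUSG00000105621.1, 48537829 to 48537917) are 261 bases apart and are followed by Mirlet7d, whose 5p arm has its own sequence. Mirlet7d had 22942 and 29479 CPM, which was 69.9-fold and 102-fold above Mirlet7a-1 and 95.4-fold and 90.7-fold above Mirlet7f-1. Within the cluster Mirlet7f-1 stood at 0.733 times Mirlet7a-1 in replicate 1 and 1.13 times in replicate 2, so their order turned.

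On chromosome 15, Mirlet7c-2 (ENSMUSG00000065608.1, 85706603 to 85706697) lies 621 bases from Mirlet7b, which stood at 57.1 times its level in replicate 1 and 107 times in replicate 2. Mirlet7c-2 itself changed less between the libraries than this ratio, from 1472 to 1694 CPM, while Mirlet7b had 84098 and 181670 CPM.

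The remaining clusters pair let-7 with other families. Mirlet7a-2 (ENSMUSG00000092770.1, chromosome 9, 41536716 to 41536811) lies between Mir100 and Mir125b-1, of which miR-125 is the relative of the worm timing microRNA lin-4. Mir100 stood at 18.5 and 11.9 times Mirlet7a-2 in replicates 1 and 2, and Mir125b-1, itself a numbered copy, at 1.29 and 1.22 times. Mirlet7c-1 (ENSMUSG00000065557.3, chromosome 16, 77599657 to 77599750) lies in the parallel cluster between Mir99a and Mir125b-2. Mir99a stood at 25.9 and 17.0 times Mirlet7c-1, and Mir125b-2 at 0.248 and 0.284 times. In both clusters the miR-99/100 gene, without a numbered copy, was the highest of the 3 genes.

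Mirlet7f-2 (ENSMUSG00000065602.1, chromosome X, 151912346 to 151912428) was the exception. Its neighbour Mir98, a let-7 family gene 785 bases away and also intronic in Huwe1, stood at 0.821 times its level in replicate 1 and 0.799 times in replicate 2. Mir3113, the other gene in reach, had 0 counts in both libraries.

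**Figure D3:**
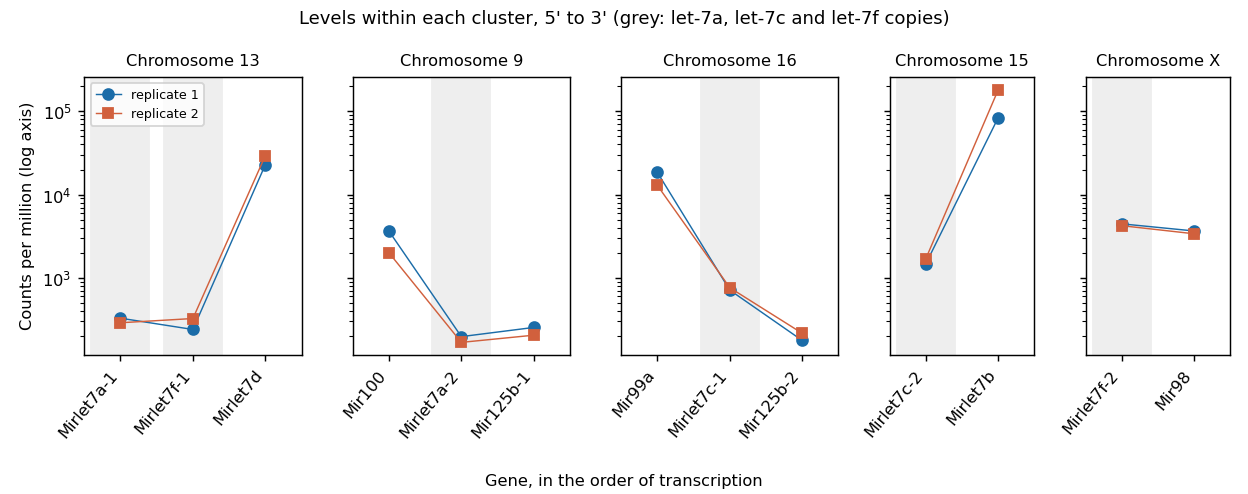
CPM on a log axis for the genes of the 5 clusters that hold the 6 copies, in the order of transcription, with both libraries and the copies shaded. Within their clusters the copies lie below Mirlet7d, Mirlet7b, Mir100 or Mir99a, except Mirlet7f-2, which lies above Mir98. Only reads placed at a single locus are counted, without reads shared between copies.

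Between the libraries the let-7a copies and Mirlet7f-2 were higher in replicate 1, Mirlet7f-1 was higher in replicate 2 and the let-7c copies were not past the test. Differences are log2 ratios of replicate 2 over replicate 1 after TMM scaling. TMM is a scaling that sets the bulk of genes to no change. An exact binomial test, two-sided, compared the 2 counts of each of the 333 genes that reached 10 counts in each library, with Benjamini-Hochberg adjustment over all 333 at 0.05. It allows for counting noise and for no other error, and it compares these libraries, not conditions. It called 3 of the 6 copies higher in replicate 1, where 38.7% of all genes tested were called in that direction, and 1 higher in replicate 2, where 39.3% were. The median of the copies was -0.17 and their range -0.41 to 0.25. Over all genes the median was 0.01 and the range -5.88 to 6.47. In size regardless of direction the median was 0.25 for the copies, 0.52 for the 6 other let-7 genes and 0.62 for all genes tested. The lowest count of a copy was 350, while genes were tested from 10 counts on. These medians are therefore not matched for counting noise, and their differences were not tested.

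Mirlet7a-2 had a log2 ratio of -0.41 (counting interval -0.60 to -0.23, exact binomial adjusted p = 7.82e-06) and Mirlet7a-1 one of -0.37 (-0.51 to -0.23, exact binomial adjusted p = 1.53e-07), so both let-7a copies were higher in replicate 1. Mirlet7f-2 was also higher there, at -0.26 (-0.29 to -0.22, exact binomial adjusted p = 5.28e-45). Mirlet7f-1 was higher in replicate 2, at 0.25 (0.11 to 0.39, exact binomial adjusted p = 7.25e-04). The let-7c copies were not past the test, with Mirlet7c-1 at -0.09 (-0.18 to -0.00, exact binomial adjusted p = 0.0541) and Mirlet7c-2 at 0.02 (-0.04 to 0.08, exact binomial adjusted p = 0.590).

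An edgeR exact test with the common dispersion of the same 2 libraries called 1.80% of the genes tested and none of the 6 copies. None of the copies had an unadjusted p under 0.05 in it either. Its adjusted p was 0.987 for both let-7a and both let-7f copies. The dispersion was taken with the 2 libraries as 1 group, at a biological coefficient of variation of 0.522. The difference between the libraries is thus itself the noise term, so this test cannot decide whether the copies differ. With library size in place of TMM the median of all genes moved from 0.01 to 0.19, and 3 copies were called in each direction. Of the 333 genes tested, 112 were called higher in replicate 1 in that setting and 149 higher in replicate 2. Mirlet7c-1 turned to 0.10 (exact binomial adjusted p = 0.0408) and Mirlet7c-2 stood at 0.20, both called higher in replicate 2. Mirlet7a-1, Mirlet7a-2, Mirlet7f-1 and Mirlet7f-2 stood at -0.19, -0.23, 0.44 and -0.07. A linear correction for hairpin GC content ended the call of Mirlet7f-2, at -0.02, and moved Mirlet7a-1 to -0.15 and Mirlet7f-1 to 0.56, and Mirlet7c-1 was called higher in replicate 1 with DESeq2 scaling, the strand-blind column and each other count minimum.

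Of the other let-7 genes 3 were called higher in replicate 1 and 3 in replicate 2. Mirlet7g, Mirlet7i and Mir98 had log2 ratios of -0.52, -0.52 and -0.30, and Mirlet7b, Mirlet7e and Mirlet7d of 0.93, 0.58 and 0.18. Mir98 and its neighbour Mirlet7f-2 had close values, and so did Mirlet7d and Mirlet7f-1, its nearer neighbour. Mirlet7a-1 of the cluster of Mirlet7d had the opposite sign. Mirlet7c-2, at 0.02, stood apart from its neighbour Mirlet7b, so closeness on the chromosome did not go with close values throughout. Mir7j and Mir7k, which encode the divergent let-7j and let-7k, had 241 and 64 counts and 2 and 3 counts, and stand outside the 12.

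Markers of erythroid, epithelial and pancreas acinar cells differed widely between the same libraries, and neuroendocrine and endothelial markers differed less. The 3 erythroid genes Mir451a, Mir144 and Mir486 summed to 15841 and 1091 CPM in replicates 1 and 2, and the 5 epithelial miR-200 genes to 64.7 and 3576 CPM. The 3 pancreas acinar genes Mir216a, Mir216b and Mir217 had 0 counts in replicate 1 and summed to 326 CPM in replicate 2. The 4 neuroendocrine genes led by Mir375 summed to 48802 and 54157 CPM, and the endothelial pair Mir126a and Mir126b to 74842 and 64797 CPM. The part of these differences in the ratios of the let-7 copies was not tested, and fewer cells of a type cannot be told apart from less RNA per cell.

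Among all microRNA genes with numbered copies, the 3 let-7 pairs stood high in reads placed at a single locus. Reads shared between copies are in none of these sums, so the order is not one of family abundance. The files hold 138 such genes in 53 families, and the 6 let-7 copies took 53.6% of their counts in replicate 1 and 64.3% in replicate 2. As summed levels, let-7f had 4696 and 4561 CPM, let-7c 2185 and 2456 CPM and let-7a 525 and 457 CPM, which made them 1, 2 and 5 in the order of families by mean level. The 3 highest families other than let-7 were Mir16 at 1775 ± 1262 CPM, Mir92 at 771 ± 411 CPM and Mir30c at 488 ± 163 CPM. Mir16 stood above let-7c in replicate 1, at 2667 CPM, and below it in replicate 2, at 882 CPM, and the means of these families do not differ beyond their spread. Nor do let-7a, at 491 ± 48.3 CPM, and Mir30c differ beyond their spread.

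Copies with unequal numbers of placed reads were common. Reads shared between copies are not in the values below, and whether the loci were transcribed unequally was not tested. Of 16 families with exactly 2 copies, each reaching 10 counts in each library, the copies differed by a median of 1.62 in log2 of mean CPM, from 0.121 for Mir29b to 4.62 for Mir92. The let-7a pair differed by 0.755, the let-7c pair by 1.10 and the let-7f pair by 3.94, places 4, 7 and 15 of the 16.

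Genes with every mature arm shared were seldom counted, and the let-7 copies were the highest of them. RefSeq arms could be placed in 955 counted genes. Of the 837 with no arm in another hairpin, 28.7% reached 10 counts in each library, with a median of 219 CPM among those. Of the 52 genes with every arm shared, 11.5% did, which is 6 genes with a median of 32.5 CPM. Mirlet7c-2 at 1583 CPM and Mirlet7a-1 at 308 CPM were the highest of these 6, followed by Mir129-1 at 33.4 CPM, a gene named after its value was seen. Of the 66 genes with some arms shared, 62.1% reached 10 counts in each library, with a median of 89.8 CPM, and Mirlet7f-2 was the highest. Mirlet7c-1, Mirlet7f-1 and Mirlet7a-2 were 4, 10 and 16 in that order. These shares describe the counted genes, and no test was made.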

How the data were processed

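Small RNA of less than 30 bases was sequenced from adrenal glands, per the labels. The authors deposited raw read counts per microRNA gene, ignoring strand and for each strand, and totals of reads that were unmapped, mapped to several places, lay outside genes or were ambiguous. Per the file headers of the deposited notes, reads were placed on mm10 and counted against GENCODE M21. For aligner and counter, the tools are not given in the sources at hand. Library sizes are sums over genes and leave out the totals that belong to no gene. Unmapped reads, reads mapping to several places, reads outside genes and ambiguous reads were 26.4%, 29.8%, 7.16% and 0% of 12289288 reads in replicate 1 and 51.9%, 21.5%, 6.46% and 0% of 10323816 in replicate 2.

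Symbols, positions and hairpins came from GENCODE M21, and arms from the RefSeq table on GRCm38.p6, in which 969 of 2202 genes had an entry at the same position, all 969 with the same sequence. No genome sequence was used, so uniqueness was measured among the counted hairpins rather than in the genome. The members and lists were chosen with earlier results of these data known. The rule for named genes took the 6 copies, the other let-7 genes, genes within 60 kb on the same strand, the gene above and below each copy in level and the 3 highest other families of numbered copies. Ratios used TMM in edgeR, and tests were the exact binomial test and the edgeR exact test, since 1 group leaves no contrast for a quasi-likelihood test. The binomial test was tested first on simulated data with counting noise only and with library sizes from the unchanged genes. Differences between animals and TMM scaling were not part of that check. Tools were R 4.3.3, edgeR 4.0.16, DESeq2 1.42.0, Python 3.11.15, NumPy 2.4.6, SciPy 1.17.1, pandas 2.3.3, Biopython 1.88 and matplotlib 3.10.9.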

Additional observations from a re-analysis of the deposited data

How the results depend on the processing

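No paired analysis was possible because the labels define a single group. The count of copies called higher in replicate 1, 3 by the exact binomial test, was 2 to 4 with library size, DESeq2 median-ratio scaling, the strand-blind column, a GC correction or count minimums of 5 and 50. Of all genes tested, 112 of 333, 133 of 333 and 119 of 304 were called in that direction in the first 3 settings. In the other settings they were 129 of 333, 141 of 386 and 119 of 259, in that order. Mirlet7c-1 was past the test, higher in replicate 1, with DESeq2 scaling at -0.09, in the strand-blind column at -0.12 and with count minimums of 5, 50 and none at -0.14, -0.10 and -0.26. The count of copies was 5 with no count minimum, where 167 of 749 genes tested were called higher in replicate 1. There the median of all genes moved from 0.01 to -0.16, and Mirlet7c-2 was called at -0.15. Mirlet7a-1 and Mirlet7f-2 moved to -0.54 and -0.43, and Mirlet7f-1, at 0.08, lost its call. The count of copies was 0 with the edgeR exact test, which called 1.80% of genes in either direction. Its noise estimate came from the same differences, so this 0 decides nothing. The count called higher in replicate 2, 1 by the exact binomial test, was 3 with library size alone and 0 with the strand-blind column, with no count minimum and with the edgeR exact test. Of all genes tested, 149 of 333, 122 of 304 and 132 of 749 were called so in the first 3 of these settings. In the strand-blind column Mirlet7f-1 has no counts and leaves the test, which also sets the share of Mirlet7f-2 in its pair to 100%. The log2 ratio of Mirlet7c-1 turned from -0.09 to 0.10 with library size alone and to 0.02 with the GC correction, and that of Mirlet7c-2 from 0.02 to -0.02 in the strand-blind column, to -0.05 with the GC correction and to -0.03 with a count minimum of 5. Neither was past the test before. With library size alone Mirlet7c-1 was past it in the other direction, higher in replicate 2, so the direction of its call depends on the scaling. The cause was not tested. With 1 library alone the share of let-7 counts held by the copies was 2.21% or 2.93%, and the share of copy 2 was 36.8% or 37.5% for let-7a, 67.4% or 69.0% for let-7c and 92.9% or 94.9% for let-7f. Scaled to all reads in place of gene reads, the levels fell to between 53.0 for Mirlet7a-2 and 1241 for Mirlet7f-2, by construction. Leaving out a library leaves no ratio, so the tests were not run that way.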
